A study of Mus musculus with 8 samples.

Results

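The chemokine CXCL12 and its receptors CXCR4 and ACKR3 were followed as 3 genes, Cxcl12, Cxcr4 and Ackr3, taken by their Entrez identifiers from a table of 27179 genes counted in 8 RNA-seq libraries. The 4 groups were the mammary tumour lines 67NR, 66cl4 (spelled 66c14 in the labels), 4T1 and 4T1.2, isogenic cells of mouse origin, and each gave 2 biological replicates. The labels give no growth condition, treatment, added gene or deletion for any of them. 4T1.2 is a subline of 4T1 that spreads to bone, whereas the study describes 66cl4 and 67NR as sibling lines of low metastatic potential. The lines were analysed as cultured tumour cells, so marrow cells that make or sense CXCL12 in the animal were not sampled.

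CXCL12 is the chemokine that stromal cells of the bone marrow secrete to hold haematopoietic stem cells and lymphocytes in place. It binds CXCR4, a receptor that signals through Gi proteins and drives migration towards the source. It also binds ACKR3 (formerly CXCR7), an atypical receptor that recruits arrestin without classical G-protein signalling and removes CXCL12 from the surroundings by internalising it. Tumour cells that display CXCR4 can follow CXCL12 into marrow, lung and liver, which made the pair a model for organ-specific spread of breast cancer.

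Cxcl12 (Entrez 20315) lies on the plus strand of chromosome 6, from 117168535 to 117181368 in GRCm38. Ackr3 (Entrez 12778, plus strand, 90203980 to 90215724) and Cxcr4 (Entrez 12767, minus strand, 128588199 to 128592299) both lie on chromosome 1. All 3 are protein-coding, and no other annotated gene overlaps any of their spans. Of the 8216 different 75-base stretches in the annotated transcripts of Cxcl12, 0 occur in a transcript of another gene, and the same was found for the 1805 stretches of Cxcr4 and the 3311 of Ackr3. Reads of that length would tell these genes from their relatives. The study gives this read length for its endothelial libraries and describes the sequencing of the cell lines as similar. The 250 bases before each gene's start (RefSeq, GRCm38.p6) are shown because Cxcl12 went from near 0 to high between lines and Cxcr4 was not counted in any, with CpG dinucleotides, the sites of DNA methylation, in capitals. The windows are chr6:117168285-117168534 on the plus strand for Cxcl12, chr1:128592300-128592549 on the minus strand for Cxcr4 and chr1:90203730-90203979 on the plus strand for Ackr3.
Cxcl12: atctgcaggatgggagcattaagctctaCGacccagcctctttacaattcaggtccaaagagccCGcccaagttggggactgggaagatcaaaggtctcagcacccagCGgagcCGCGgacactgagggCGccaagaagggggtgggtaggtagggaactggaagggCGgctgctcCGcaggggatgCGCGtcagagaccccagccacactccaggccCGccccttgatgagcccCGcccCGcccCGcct
Cxcr4: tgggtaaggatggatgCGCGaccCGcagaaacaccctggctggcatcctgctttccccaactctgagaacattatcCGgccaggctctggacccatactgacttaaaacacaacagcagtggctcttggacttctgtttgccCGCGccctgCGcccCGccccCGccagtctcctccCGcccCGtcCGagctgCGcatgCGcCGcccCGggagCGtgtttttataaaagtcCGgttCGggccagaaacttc
Ackr3: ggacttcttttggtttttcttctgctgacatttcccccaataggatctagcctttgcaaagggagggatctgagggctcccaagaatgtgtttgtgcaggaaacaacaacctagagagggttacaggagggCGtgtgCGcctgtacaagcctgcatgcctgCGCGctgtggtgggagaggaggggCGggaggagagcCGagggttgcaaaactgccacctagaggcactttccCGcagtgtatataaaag

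The Cxcl12 window holds 14 CpG dinucleotides and the Cxcr4 window 19, against a median of 6.0 over 32851 windows of the same kind. Among all windows, 29.4% have at least as many as Cxcl12 and 19.7% at least as many as Cxcr4. The Ackr3 window holds 7, a number that 46.3% of windows reach. The letters TATAAA occur on the gene's own strand 30 bases before the start of Cxcr4 and 8 bases before the start of Ackr3, and on neither strand of the Cxcl12 window. The Cxcr4 window also has them on the other strand, overlapping the first match. Of all windows, 12.4% have a match on either strand. The core letters of hypoxia response elements were searched as ACGTG and GCGTG on both strands. ACGTG is in none of the 3 windows and in 16.6% of all windows, and GCGTG is in the Cxcr4 and Ackr3 windows and in 28.2% of all. These are matches of letters and were not measured as binding sites, and DNA methylation was not measured here.

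Library totals ran from 37159840 to 66269681 counts, and the biological coefficient of variation over the 13913 genes that entered the test was 9.74%. Levels are given as RPKM, counts divided by gene length and by the library's size after TMM scaling, so that genes can be compared per length. Of the 3 genes, Cxcl12 and Ackr3 passed the filter on low counts and were tested, and Cxcr4 was not. Unless another test is named, p-values are from the quasi-likelihood F-test of edgeR, adjusted by the Benjamini-Hochberg method over the genes tested, a gene is called at an adjusted p under 0.05, and fold changes are on the log2 scale with the standard error (SE).

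**Figure D1:**
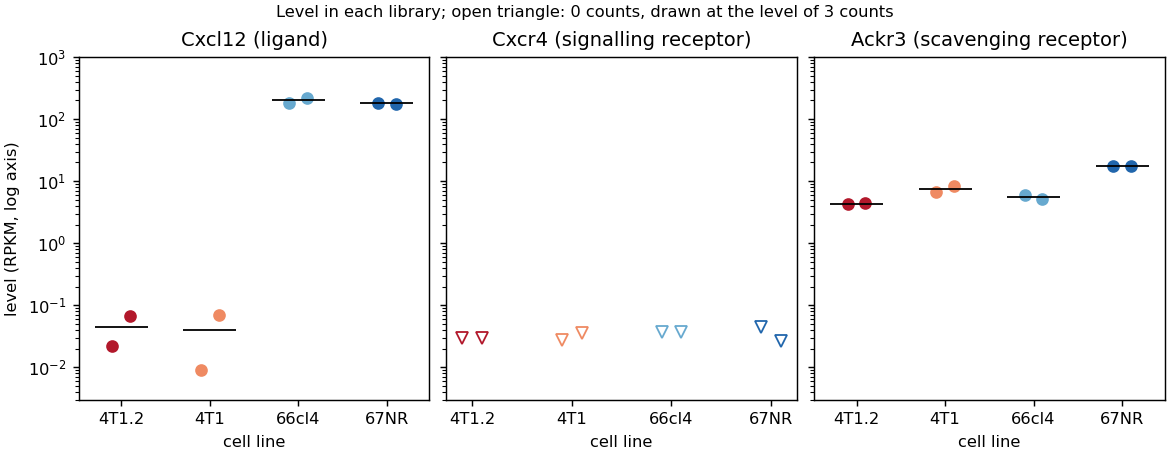
Level of Cxcl12, Cxcr4 and Ackr3 in each of the 8 libraries (RPKM, log axis), with a bar at the mean of the 2 libraries of a line. Cxcl12 is at 173 RPKM or more in 66cl4 and 67NR and under 0.1 in 4T1 and 4T1.2, Ackr3 lies between 4.32 and 17.8 in all lines, and Cxcr4 (open triangles) has 0 counts and is drawn at the level that 3 counts would give.

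RNA of the ligand was abundant in 66cl4 and 67NR cells and close to 0 in 4T1 and 4T1.2 cells. The replicates of 66cl4 had 58860 and 71545 counts of Cxcl12, and those of 67NR had 48236 and 76592. The replicates of 4T1.2 had 9 and 27 counts, and those of 4T1 had 4 and 23. No library of the first pair of lines came near a library of the second pair.

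In RPKM the replicates of Cxcl12 stood at 182 and 223 for 66cl4, 184 and 173 for 67NR, 0.0221 and 0.0666 for 4T1.2, and 0.00915 and 0.0693 for 4T1. The replicates of 66cl4 and 67NR thus overlapped, as did those of 4T1.2 and 4T1. Per length, the level of Cxcl12 was 202 ± 29.3 RPKM in 66cl4 (mean ± SD, n = 2) and 179 ± 7.41 in 67NR (n = 2). It was 0.0443 ± 0.0314 in 4T1.2 (n = 2) and 0.0392 ± 0.0426 in 4T1 (n = 2). The ratio of these mean levels between a high and a low line ran from 4028 (67NR over 4T1.2) to 5157 (66cl4 over 4T1). In every 66cl4 and 67NR library Cxcl12 ranked first among 39 chemokine ligand genes and between 304th and 418th among all genes by RPKM. In libraries of 4T1 and 4T1.2 it ranked 16th to 19th of the 39. It alone took 0.121% to 0.155% of all counts in the high lines.

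Cxcl12 differed among the 4 lines with an adjusted p of 2.68e-09 (edgeR), as did 84.7% of the genes tested. In the comparison of the mean of 4T1 and 4T1.2 with the mean of 66cl4 and 67NR, the log2 fold change of Cxcl12 was -12.21 (SE 0.31, adjusted p = 2.89e-10, edgeR). In that comparison 76.7% of genes were called, 38.1% as higher and 38.6% as lower, so a call alone does not set the gene apart. By size, 27 of the 13913 tested genes, Cxcl12 included, had a fitted fold change as low or lower. The fitted size depends on the few counts in the low lines, and the fold was -13.17 without replicate 2 of 4T1, -12.70 without replicate 2 of 4T1.2, -11.92 without replicate 1 of 4T1.2 and -11.73 without replicate 1 of 4T1.

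Taken by single lines, the 4 comparisons of a low with a high line gave log2 fold changes of Cxcl12 between -12.46 (4T1 against 66cl4, SE 0.45) and -11.97 (4T1.2 against 67NR, SE 0.43), all called. Backgrounds were 70.0% of genes called for 4T1 against 66cl4, 68.2% for 4T1 against 67NR, 68.8% for 4T1.2 against 66cl4 and 67.8% for 4T1.2 against 67NR. Without replicate 2 of 4T1 the folds of 4T1 were -14.37 against 66cl4 and -14.21 against 67NR, and without its replicate 1 they were -11.50 and -11.32. Without replicate 2 of 4T1.2 the folds of 4T1.2 were -13.13 and -12.96 in the same order, and without its replicate 1 they were -11.55 and -11.39. Within each pair of lines no difference in Cxcl12 was detected. Between 66cl4 and 67NR the log2 fold change was 0.18 (SE 0.25, adjusted p = 0.59, edgeR), while 44.6% of genes were called. Between 4T1.2 and 4T1 it was 0.32 (SE 0.72, adjusted p = 0.818, edgeR), with 19.3% of genes called. That last sign depended on single libraries, since it turned to -0.68 without replicate 2 of 4T1.2 and to -0.64 without replicate 1 of 4T1.

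**Figure D2:**
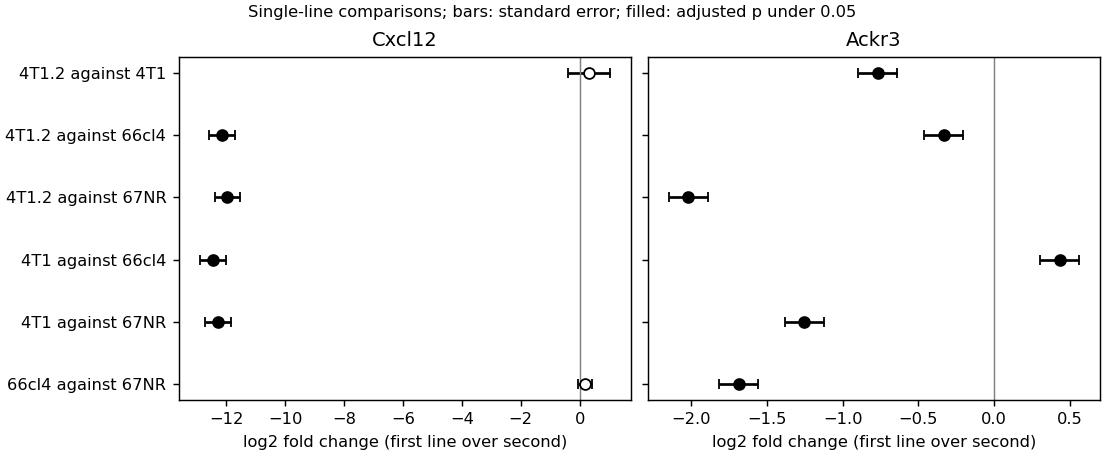
Log2 fold changes of Cxcl12 and Ackr3 in the 6 comparisons of single lines, with standard errors; filled points have an adjusted p under 0.05. Cxcl12 is near -12 wherever 4T1 or 4T1.2 is set against 66cl4 or 67NR and near 0 within each pair, whereas Ackr3 is called in all 6, between -2.02 and 0.43. The horizontal axes differ between the panels.

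RNA of the signalling receptor was not counted in any line. Cxcr4 had 0 counts in all 8 libraries, out of 439990389 counts on all genes. A count of 0 allows up to 3 counts in a library, which is 0.0268 to 0.0451 RPKM for a gene of this length, and these limits cover counting error only. A level under that limit in a single library is not excluded by its count of 0. Of 20979 protein-coding genes in the table, 3878 (18.5%) were likewise at 0 in every library. The order of the lines for Cxcr4 therefore could not be given, and it entered no test.

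RNA of the scavenging receptor was present in every line. Counts of Ackr3 were 632 and 643 for 4T1.2, 1038 and 987 for 4T1, 686 and 590 for 66cl4, and 1679 and 2795 for 67NR. Its level was 4.32 and 4.40 RPKM in 4T1.2 and 5.88 and 5.11 RPKM in 66cl4. It was 6.60 and 8.26 RPKM in 4T1 and 17.8 and 17.6 RPKM in 67NR. Ordered by mean level, 67NR (17.7 ± 0.143 RPKM, SD, n = 2) stood above 4T1 (7.43 ± 1.18, n = 2), 66cl4 (5.49 ± 0.546, n = 2) and 4T1.2 (4.36 ± 0.0587, n = 2). No library of one line overlapped in level with a library of another. With 2 libraries per line, the share of all genes that separate in this way was not computed.

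Ackr3 differed among the lines with an adjusted p of 8.01e-07 (edgeR), and 84.7% of the genes tested were called. The clearest step was from 67NR to the others. The log2 fold change was -2.02 for 4T1.2 against 67NR (SE 0.13, adjusted p = 4.78e-07, edgeR), -1.69 for 66cl4 against 67NR (SE 0.13, adjusted p = 8.29e-06, edgeR) and -1.25 for 4T1 against 67NR (SE 0.13, adjusted p = 1.38e-05, edgeR). In linear terms the mean level in 67NR was 4.05 times that in 4T1.2, 3.22 times that in 66cl4 and 2.38 times that in 4T1.

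Between 4T1.2 and its parent 4T1, Ackr3 was lower in 4T1.2 by a log2 fold change of -0.77 (SE 0.13, adjusted p = 0.00288, edgeR), a comparison in which 19.3% of genes were called. The fold stayed between -0.92 and -0.60 when any 1 library was left out. The neighbours at the lower end of the order were less secure. For 4T1 against 66cl4 the fold was 0.43 (SE 0.13, adjusted p = 0.0126, edgeR). It lost its call without replicate 2 of 4T1 (0.28, adjusted p = 0.0772, edgeR) and without replicate 2 of 66cl4 (0.34, adjusted p = 0.0902, edgeR). For 4T1.2 against 66cl4 the fold was -0.33 (SE 0.13, adjusted p = 0.0428, edgeR). This call was lost without either replicate of 4T1.2, without replicate 1 of 66cl4 and without either replicate of 67NR. The adjusted p then ranged from 0.0708 to 0.228 (edgeR). It was also lost under 4 other settings, with adjusted p-values of 0.0544 to 0.0625.

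In the pooled comparison 76.7% of tested genes were called. It gave Ackr3 a log2 fold change of -0.79 (SE 0.09, adjusted p = 2.32e-05, edgeR) for 4T1 and 4T1.2 against 66cl4 and 67NR. This mean joins lines that differ, since 66cl4 lay below 4T1 while 67NR lay above every other line.

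The lines thus fell into different combinations of ligand and receptor RNA. Secreted CXCL12 and receptor protein were not measured here. In 66cl4 and 67NR cells RNA of the ligand exceeded that of its scavenging receptor per length. The Cxcl12 to Ackr3 ratio was 30.9 and 43.7 for the replicates of 66cl4 and 10.3 and 9.87 for those of 67NR. In libraries of 4T1 and 4T1.2 the order was turned, with an Ackr3 to Cxcl12 ratio from 66.1 to 721. Ackr3 exceeded Cxcr4 in all 8 libraries by at least 138-fold (replicate 2 of 66cl4) to at least 655-fold (replicate 2 of 67NR) in RPKM, with Cxcr4 set at 3 counts. Since Cxcr4 was at 0 throughout, the balance of the receptors between lines was given no test.

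Ackr3 was set among the other chemokine receptors, a family of 24 genes in this table. Of these, 5 had 0 counts in all libraries, Cxcr4 among them, and 8 were tested. Ackr3 had the highest mean level of the family in 66cl4 and in 67NR, and in 67NR it was the only one of the 24 with a mean above 1 RPKM. In 4T1.2 and 4T1 it came second to Cxcr3, a receptor for interferon-induced chemokines, which had 6.02 ± 0.364 and 9.11 ± 0.634 RPKM there (SD, n = 2 each). The order of Cxcr3 and Ackr3 within a line was not tested.

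**Figure D3:**
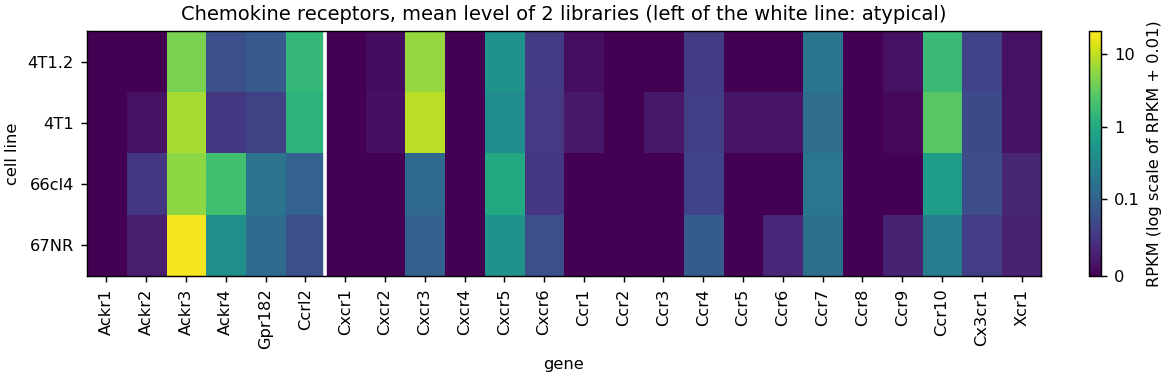
Mean level of 24 chemokine receptor genes in the 4 lines (RPKM, on a log scale of RPKM + 0.01; mean of 2 libraries), atypical receptors to the left of the white line. Ackr3 is present in every line, Cxcr4 is at 0 in every line, and Cxcr3 reaches 6.02 RPKM in 4T1.2 and 9.11 in 4T1 but stays under 0.2 in 66cl4 and 67NR.

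Of 5 other atypical receptors, 3 were tested in the pooled comparison and all 3 were called, as were 76.7% of all tested genes. Ccrl2, which presents chemerin, was called higher in 4T1 and 4T1.2 with a log2 fold change of 4.26 (SE 0.23). Ackr4, the scavenger of CCL19 and CCL21, was called lower, at -4.63 (SE 0.35), and had its highest mean in 66cl4, 1.98 ± 0.366 RPKM (SD, n = 2). Gpr182, which has been linked to CXCL12 uptake in endothelium, was called lower at -1.53 from 3 to 14 counts a library. Of 17 other signalling receptors 4 were tested, with 2 called higher, 1 lower and 1 not called, a share near the 76.7% called over all tested genes. Cxcr3 was higher with a fold of 6.07 (SE 0.15), Ccr10, a receptor for CCL27 and CCL28, with 2.47 (SE 0.16), and Cxcr5, the receptor for CXCL13, was lower with -0.68 (SE 0.23). The pooled value of Cxcr5 joins 66cl4, at 1.01 ± 0.446 RPKM (SD, n = 2), with 67NR at a mean of 0.473. Mean Cxcr5 was 0.489 RPKM in 4T1.2 and 0.391 in 4T1.

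The other extracellular ligands of these receptors were led by Mif, a cytokine that binds CXCR4 and CD74. Its mean level ran from 279 ± 6.99 RPKM in 66cl4 to 947 ± 374 in 4T1, with 503 ± 79.8 in 4T1.2 close to 492 ± 26.0 in 67NR (SD, n = 2 each). Of 6 such ligands 4 were tested, and 3 were called higher and 1 lower in 4T1 and 4T1.2, against 38.1% and 38.6% of all tested genes. Their median log2 fold change was 0.60, against -0.01 over all tested genes. Mif had a fold of 0.90 (SE 0.16), Hmgb1, a nuclear protein that forms a complex with CXCL12 outside the cell, 0.30 (SE 0.06), and Cxcl11, a ligand of CXCR3 and ACKR3, 1.49 (SE 0.41) from 3 to 17 counts a library. Adm, which encodes adrenomedullin, a peptide cleared by ACKR3, was lower, at -3.34 (SE 0.16). Its mean was 66.5 ± 4.28 RPKM in 66cl4 and 19.8 ± 0.535 in 67NR, against 5.47 ± 2.11 in 4T1 and 2.38 ± 0.358 in 4T1.2 (SD, n = 2 each). Penk and Cxcl14 had 0 counts in every library.

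Of 7 genes for proteases that cut CXCL12, 4 were tested, with 2 called higher, 1 lower and 1 not called (76.7% of all tested genes called), and a median log2 fold change of -0.65 (-0.56 with genes at 0 in a group set at their bound). Mmp9 was higher in 4T1 and 4T1.2 with a fold of 7.77 (SE 0.13), at 66.8 ± 2.81 RPKM in 4T1.2 and 0.110 ± 0.0543 in 66cl4 (SD, n = 2 each). Mmp14, a membrane-bound collagenase, was higher with a fold of 1.71 (SE 0.07), and Mmp2 was lower with -3.02 (SE 0.13). Dpp4, the peptidase that inactivates CXCL12 at its amino end, had at most 1 count in any library. The protease gene not called, Cpn1, had counts only in 67NR, at most 56 in a library, and its pooled fold could not be estimated (SE 6856).

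Heparan sulphate proteoglycans hold CXCL12 on cell surfaces. Of 10 genes for their cores and polymerase 9 were tested in the pooled comparison, with 7 called higher and 2 lower in 4T1 and 4T1.2 and a median of 0.38 (38.1% of all tested genes called higher and 38.6% lower). The pooled direction did not hold line by line for every gene, since mean Ext2 was 49.7 RPKM in 4T1 and 60.7 in 66cl4, and mean Sdc2 was 43.6 RPKM in 4T1.2 and 60.1 in 66cl4. The most abundant was Sdc4, encoding syndecan-4, with a fold of 1.77 (SE 0.11) and mean levels from 60.7 ± 0.900 RPKM in 67NR to 348 ± 57.0 in 4T1.2 (SD, n = 2 each). Gpc1 had a fold of 1.47 (SE 0.07) and Sdc3 of 3.79 (SE 0.12), and Ext2, a subunit of the heparan sulphate polymerase, of 0.29 (SE 0.06). Gpc6, a glypican, was called lower with 0 counts in every library of 4T1 and 4T1.2 but 123 to 238 in those of 66cl4 and 67NR.

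**Figure D4:**
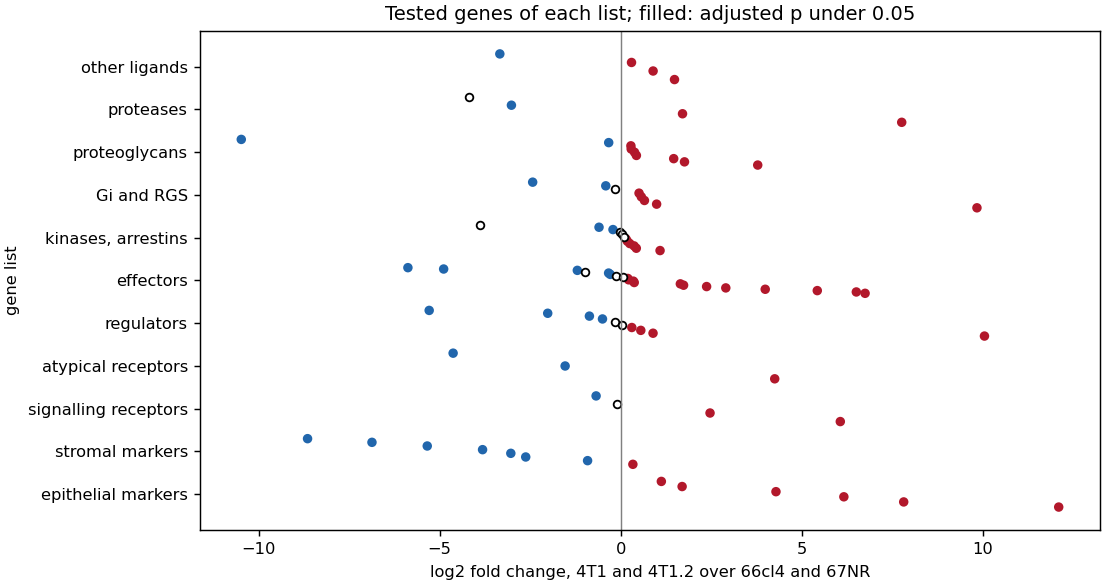
Log2 fold change of each tested gene, 4T1 and 4T1.2 over 66cl4 and 67NR, by list, with filled points where the adjusted p is under 0.05. Of the 9 tested proteoglycan genes 7 are called higher, stromal markers fall mostly to the left and epithelial markers to the right; values of genes at 0 in a group depend on the prior count of the fit.

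Of 12 genes for Gi subunits and regulators of G-protein signalling, through which CXCR4 acts, 8 were tested, with 5 called higher and 2 lower and a median of 0.54 (76.7% of all tested genes called, 38.1% higher and 38.6% lower). Rgs1 and Rgs4 had 0 counts in all libraries. Gnai2, the most abundant Gi subunit, had a fold of 0.51 (SE 0.08) and mean levels from 291 ± 17.4 RPKM in 67NR to 471 ± 40.0 in 4T1 (SD, n = 2 each). Gnai3, the next Gi subunit, was not called (-0.14, SE 0.06). Its mean was 67.3 RPKM in 66cl4 and 98.6 in 67NR, with 72.2 in 4T1.2 and 75.4 in 4T1. Rgs16, which shortens Gi signals, was called higher, with 1079 to 1561 counts where 4T1 or 4T1.2 was the source and 0 to 2 elsewhere. Rgs19 was higher with a fold of 1.00 (SE 0.07), Gnaz, a Gi-family subunit, lower with -2.43 (SE 0.30), and Rgs2 lower with -0.41 (SE 0.10). The pooled value of Rgs2 joins 66cl4, at a mean of 6.93 RPKM, with 67NR, which at 2.71 RPKM lay below 4T1.2 (3.13) and 4T1 (3.40).

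All 12 genes of receptor kinases, arrestins and receptor degradation were tested, with 6 called higher, 2 lower and 4 not called, and a median of 0.12 (76.7% of all tested genes called). Arrb1, one of the arrestins that bind both receptors, was higher with a fold of 1.09 (SE 0.08), and the kinase gene Grk5 was lower with -0.60 (SE 0.09). The pooled value of Grk5 joins 66cl4, at a mean of 8.34 RPKM, with 67NR at 4.00, close to 4T1.2 (3.95) and 4T1 (3.70). Stam2, of the endosomal sorting machinery, had a fold of 0.43 (SE 0.06) and Usp14, a deubiquitinase of CXCR4, of 0.19 (SE 0.06). Grk6 (-0.02, SE 0.06) and Usp8 (0.04, SE 0.06) were not called. Within the pairs, Usp8 was called for 4T1.2 against 4T1 (0.31, SE 0.08) and for 66cl4 against 67NR (0.24, SE 0.08). Grk6 was called for 66cl4 against 67NR (-0.28, SE 0.09). Grk3, also not called, had counts only in 66cl4, at most 27 in a library, and its pooled fold could not be estimated (SE 8103).

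Among 23 effector genes 20 were tested, with 12 called higher, 5 lower and 3 not called, and a median of 0.29 (76.7% of all tested genes called, 38.1% higher and 38.6% lower). Dock2 and Itga4 had at most 1 count in any library. Prex1, which activates Rac downstream of Gi, was higher with a fold of 6.75 (SE 0.15), from 0.0699 ± 0.00756 RPKM in 67NR to 17.5 ± 1.23 in 4T1.2 (SD, n = 2 each). Cd74, the surface receptor of MIF that pairs with CXCR4, was higher with a fold of 5.43 (SE 0.19), and its mean was 15.0 ± 2.02 RPKM in 4T1 and 3.53 ± 0.577 in 4T1.2 (SD, n = 2 each). Pik3r5, a regulatory subunit of the PI3-kinase that Gi activates, was lower with -5.88 (SE 0.19). The most abundant effectors had small folds, with Cdc42 at 0.22 (SE 0.07, called), Rac1 at 0.07 (SE 0.06, not called) and Itgb1 at -0.14 (SE 0.07, not called).

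Of 12 transcriptional regulators known for Cxcl12 or its receptors 10 were tested, with 4 called higher, 4 lower and 2 not called, and a median of -0.05 (76.7% of all tested genes called). Ebf1, a factor of CXCL12-rich marrow stroma, was lower in 4T1 and 4T1.2 with a fold of -5.29 (SE 0.19), with 4.72 ± 0.400 RPKM in 66cl4 and 2.33 ± 0.360 in 67NR (SD, n = 2 each). Twist1 was lower with -0.86 (SE 0.07) and Hic1, a repressor of Ackr3, with -2.01 (SE 0.19). Yy1, a repressor of Cxcr4, was higher with 0.56 (SE 0.05), and Cebpb was not called (0.04, SE 0.08). Mean Cebpb was 184 RPKM in 4T1.2 and 177 in 66cl4, against 112 in 4T1 and 110 in 67NR. It was called within both pairs, at 0.72 (SE 0.12) for 4T1.2 against 4T1 and 0.69 (SE 0.12) for 66cl4 against 67NR. Foxc2 was called higher, with 441 to 638 counts per library of 4T1 or 4T1.2 but 0 to 2 elsewhere.

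The same lists were read within the pairs of lines. Between 4T1.2 and 4T1 (19.3% of all genes called) 6 of 9 tested proteoglycan genes, 6 of 20 effectors, 3 of 12 desensitisation genes, 2 of 8 Gi and RGS genes and 3 of 10 regulators were called. Between 66cl4 and 67NR (44.6% of all genes called) the same lists gave 6, 11, 7, 4 and 5. Of the other lists, 2 of 4 ligands, 2 of 4 proteases, 0 of 3 atypical and 2 of 4 signalling receptors were called between 4T1.2 and 4T1. Of the marker lists read below, 5 of 6 epithelial, 3 of 8 stromal, 2 of 4 endothelial and 0 of 4 leucocyte genes were called there. Between 66cl4 and 67NR these lists gave 2, 4, 1 and 2, and then 1, 6, 0 and 2, in the same order.

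Markers of other cell types were read beside Cxcl12, because fibroblasts and marrow stroma are its usual source. In these bulk libraries, fewer cells of a type and less RNA per cell cannot be told apart. Of 10 fibroblast and marrow stromal markers 8 were tested, and 7 were called lower and 1 higher in 4T1 and 4T1.2, with a median of -3.42 (38.6% of all tested genes called lower and 38.1% higher). Their summed level was 83.5 to 92.9 RPKM in the 66cl4 libraries and 45.3 to 50.8 in 67NR, against 23.6 to 25.8 in 4T1.2 and 17.7 to 18.3 in 4T1. Most of the sum came from Pdgfra in 4T1.2 and 4T1, and from Pdgfrb and Pdgfra in 66cl4 and 67NR. Pdgfrb differed most in level, with 64.0 ± 3.05 RPKM in 66cl4 and 32.5 ± 3.48 in 67NR and under 1 RPKM in the other lines (SD, n = 2 each). Defining collagen genes of fibroblasts were low in every line. Col1a1 reached a mean of 1.22 ± 0.235 RPKM in 66cl4 (SD, n = 2) and Col3a1 0.248 ± 0.0246 in 67NR (SD, n = 2). Pdgfra was called higher, at 0.34 (SE 0.08), and Acta2 lower, at -3.81 (SE 0.24). Mean Pdgfra did not follow the pairs of lines, at 24.1 RPKM in 4T1.2, 19.7 in 66cl4, 16.8 in 4T1 and 12.8 in 67NR.

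Of 8 mammary epithelial markers 6 were tested and all 6 were called higher in 4T1 and 4T1.2, with a median of 5.23 (38.1% of all tested genes called higher). Krt8, the most abundant, was present in every line, from 275 ± 25.1 RPKM in 67NR to 794 ± 133 in 4T1 (SD, n = 2 each). Krt18 had a pooled fold of 6.17 (SE 0.15), which joins 66cl4 at a mean of 81.6 RPKM with 67NR at 0.698. Cdh1, encoding E-cadherin, had a fold of 7.82 (SE 0.18), and Epcam had 778 to 2378 counts per library of 4T1 or 4T1.2 but 0 or 1 elsewhere. The summed level of the list was 257.6 to 417 RPKM in the 67NR and 66cl4 libraries and 899 to 1779 in the others. This sum was mostly Krt8 in 67NR, and Krt8 and Krt18 in the other lines.

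Leucocyte markers gave 4 tested genes of 10, with 1 called higher and 3 lower and a median of -2.25 (76.7% of all tested genes called, 38.1% higher and 38.6% lower). Cd3e and Adgre1 were at 0 in every library, and Ptprc, which encodes CD45, had at most 2 counts. The list's summed level, 18.1 to 23.6 RPKM in 66cl4 and 67NR and 0.449 to 0.891 in the others, was mostly Lyz2 in the first pair of lines (18.6 ± 2.68 RPKM in 66cl4, SD, n = 2) and mostly Coro1a in the second. Lyz2 was called lower in 4T1 and 4T1.2 (-9.69, SE 0.23). Laptm5 (-3.06, SE 0.54) and Coro1a (-1.45, SE 0.20) were called lower and Itgam higher (2.04, SE 0.52). Endothelial markers gave 4 tested of 8, with 3 called higher, none lower and 1 not called, and a median of 2.30 (76.7% of all tested genes called). Tie1 (7.38, SE 0.43), Cdh5 (3.60, SE 0.34) and Pecam1 (1.00, SE 0.32) were called, Esam was not (0.74, SE 0.45), and the list summed to at most 2.65 RPKM in any library. Mean Tie1 was 1.72 RPKM in 4T1 and 0.184 in 4T1.2, mean Cdh5 0.663 and 0.166, and mean Pecam1 0.0805 and 0.0720. The part of these markers in the difference in Cxcl12 was not tested.

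Genes whose pattern was most like that of each receptor or ligand were ranked by the root mean square difference of centred log2 CPM over the 8 libraries. For Cxcl12, whose own values deviated by 6.18 from their mean on this measure, the closest were Colec12 (0.51), Gas1 (0.58), Ppic (0.60), Bmp4 (0.71) and Tceal8 (0.78). All 5 had mean levels of 67.3 RPKM or more in 66cl4 and 67NR and under 0.1 in 4T1 and 4T1.2. With a prior count of 0.5 in place of 2, Colec12, Ppic and Tceal8 stayed among the closest 5, joined by Cdh2 (0.38) and Fgf10 (0.40). For Ackr3, with an own deviation of 0.77, the closest were Gbe1 (0.16), Chchd7 (0.19), Tifa (0.20), Tnnt1 (0.22) and Siah2 (0.24). With the other prior count, Mt1 (0.25) took the place of Tnnt1. Each of the first 5 had its highest mean in 67NR, such as 26.5 RPKM for Gbe1 and 57.1 for Chchd7. The patterns of both sets follow from the ranking, which picked genes by their likeness to Cxcl12 or Ackr3.

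The tested genes within 1000 kb of each gene, a window chosen after the values had been seen, were read for the same pooled comparison. Around Cxcl12, 12 genes were tested, with 5 called higher and 3 lower in 4T1 and 4T1.2. Around Cxcr4 these were 5 and 2 of 10, and around Ackr3 4 and 3 of 8, where 76.7% of all genes were called. None of the neighbours of Cxcl12 was abundant in 66cl4 and 67NR and near 0 in the other lines. Zfp422, whose start lies at -545 kb from that of Cxcl12, had 3202 to 4092 counts per library of 4T1 or 4T1.2 but 12 to 32 elsewhere, a fold of 7.38 (SE 0.10) in the direction opposite to Cxcl12. The Cxcr4 window held well-counted genes, such as Mcm6 with 13169 to 32293 counts and Dars with 5378 to 15004 counts in a library. Near Ackr3, Ramp1 was higher in 4T1 and 4T1.2 (1214 to 1484 counts against 0 to 3), and Rab17 likewise (4.38, SE 0.16), whereas Mlph was lower (-6.44, SE 0.27). These named neighbours were chosen after their values were seen.

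**Figure D5:**
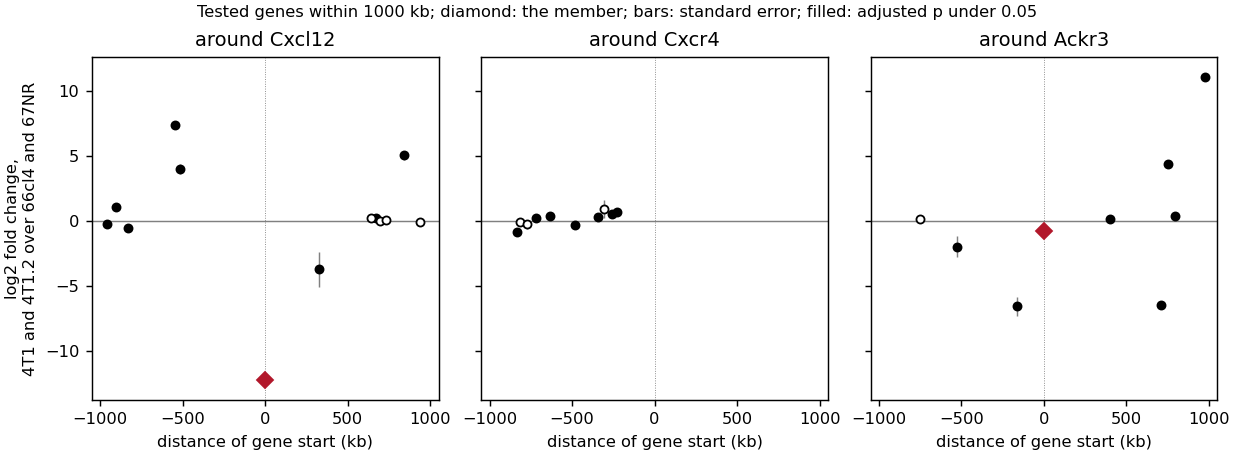
Log2 fold change (4T1 and 4T1.2 over 66cl4 and 67NR, with standard error) of the tested genes within 1000 kb of Cxcl12, Cxcr4 and Ackr3, against the distance of their starts in kb. The diamonds mark Cxcl12 (-12.21) and Ackr3 (-0.79), Cxcr4 has no value, and Zfp422 stands at 7.38 in the Cxcl12 panel.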

How the data were processed

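RNA from 8 libraries (TruSeq RNA v2, a kit that does not mark strand; 2 biological replicates of each line) was analysed. The authors deposited raw counts per Entrez gene without normalization, made with featureCounts on mm10 per the labels; the strand setting is not given in the sources used here. Each library's file held the same values as its column of the count table.

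From the counts, filterByExpr (defaults) kept 15269 genes, of which 13913 were left once identifiers absent from the gene table, predicted genes and ribosomal genes had been dropped. edgeR 4.0.16 (R 4.3.3) was fitted to all 8 libraries with a mean for each line, TMM scaling, the legacy quasi-likelihood fit and 4 residual degrees of freedom. SE values were derived from the F statistic and are approximate. RPKM used TMM-scaled sizes over tested genes and the deposited gene lengths. The fit was tested on simulated data. Totals of 37159840 to 66269681 counts set the precision.

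Named genes were the 3 members, the 5 tested genes most like each, and per list up to 3 with the highest mean RPKM and up to 3 called with the largest range of line means. The members and lists were chosen with earlier results of these data known. Alternatives were another scaling (DESeq2 1.42.0 size factors), filters, annotation, edgeR fits, DESeq2, limma-voom (limma 3.58.1), fits of 4 libraries, the replicate number, and each library left out.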

Additional observations from a re-analysis of the deposited data

How the results depend on the processing

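Of 276 values recomputed for Cxcl12 and Ackr3 under the alternatives, 263 kept their direction and their side of the threshold, 11 lost the call and 2 turned in sign. Ackr3 in 4T1.2 against 66cl4 lost its call with no filter on low counts (-0.31), with at least 10 counts in every library (-0.33), without the removal by annotation (-0.30) and with limma-voom (-0.33), and its fold ranged from -0.43 to -0.23 when each library was left out. Ackr3 in 4T1 against 66cl4 then ranged from 0.28 to 0.59. Cxcl12 in 4T1.2 against 4T1 ranged from -0.68 to 2.24, with the negative values (-0.68 and -0.64) without replicate 2 of 4T1.2 and without replicate 1 of 4T1. The cause was not tested. With at least 10 counts in every library Cxcl12 is not tested and has no value. The lowest bound on Ackr3 over Cxcr4 was 197-fold on the CPM scale, which ignores length, and 34.2-fold with 0.1 RPKM added to both. The 2681 genes called between 4T1.2 and 4T1 became 1726 in a fit of their 4 libraries and 1372 and 1424 without replicate 1 or 2 of 4T1.2. Of 438 recomputed counts over the lists, 418 stayed within 1.5 times of the reported ones and 20 did not.

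No pairing by replicate number common to all lines was seen, with correlations of same-numbered deviations between lines from -0.12 to 0.27. The highest was that of 4T1.2 with 4T1, and those of the other pairs ran from -0.12 to 0.07. A link between same-numbered libraries of 4T1.2 and 4T1 was not tested. With the replicate number as a block, the pooled folds were -12.22 for Cxcl12 and -0.79 for Ackr3, no call of either changed, and 2879 genes were called between 4T1.2 and 4T1. Adjusted p-values use a spread per gene estimated over all 8 libraries, with 2 replicates per line, and not each line's own pair. A chi-square of replicate counts per degree of freedom was 11.4 in 67NR and 66.5 to 81.6 in the other lines. Depth limits Cxcr4 to a bound and leaves Cxcl12 in 4T1 and 4T1.2 at 4 to 27 counts.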

Other observations

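The low Cxcl12 counts in 4T1 and 4T1.2 were set beside other genes with the same contrast, a search made after the values had been seen. The search asked for at least 1000 counts in every library of 66cl4 and 67NR and at most 50 in any of 4T1 and 4T1.2. Of 27179 genes, 73 met both limits. Cxcl12 had the highest mean count of these in 66cl4 and 67NR, but counts grow with gene length. Per length, mean Bmp4, a gene of like pattern, was 288 RPKM in 66cl4 and 106 in 67NR. Mean Cxcl12 was 202 and 179 RPKM in the same order. The level of Cxcl12 in CPM in the 4T1.2 libraries was 0.0116% and 0.0349% of the mean of 66cl4 and 67NR, and in the 4T1 libraries 0.00480% and 0.0364%. The counts of the other genes of this set summed to 488 and 560 in the 4T1.2 libraries and to 516 and 486 in the 4T1 libraries. These sums are held low by the limit of 50 counts that chose the genes, so nothing follows from them for Cxcl12.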
